A study of Mus musculus with 6 samples.

Results

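Accessible chromatin at the 3′ ends of protein-coding genes was described in spermatogonia, the germ cells that still divide by mitosis. The peaks of 6 ATAC-seq libraries were merged into 155412 regions on chromosomes 1 to 19. A region was kept when it came within 500 bp of the 3′ end of a protein-coding gene and lay more than 3 kb from the 5′ end of any gene. This gave 2529 regions, called 3′ end regions here. In ATAC-seq, Tn5 transposase inserts sequencing adapters where chromatin is open, so that a peak marks a site with more fragments than its surroundings.

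The cells came from testes of 129S1/Sv mice at postnatal day 5 and were enriched in spermatogonia by digestion and differential plating. In 3 libraries the mice were Sirt7-/- (S7KO), lacking SIRT7, a deacetylase of lysine residues of histone H3 among other proteins, and in 3 they were wild type (WT). The knockout is constitutive, so the somatic cells of the testis lack SIRT7 too. Each library carries its genotype and the replicate number of its title (1, 2 or 4). The library names in the descriptions run 2, 3 and 4 in the same order for both genotypes, so same-numbered libraries are the same pairs by either. The study describes them as independent biological replicates, and how many mice gave the 50000 cells of a library was not given. For its ChIP-seq on such cells, not used here, it names 1 mouse per replicate.

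The 3′ end of a gene is where the transcript is cleaved and polyadenylated, and RNA polymerase II usually runs on for some distance before it terminates. A peak beside an annotated 3′ end can belong to any element that lies there, such as an enhancer, a bound protein or the unannotated start of another transcript. Genes on opposite strands whose 3′ ends face each other are called convergent, and a region between them can reach both ends.

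The lists held 105754 to 133695 peaks, with no sequencing depth stated. The background coverage solved from the fold enrichment and p-value of narrow peaks, a relative estimate of depth, was 4.72 to 6.03 in 5 libraries and 2.92 in WT replicate 2, which had the fewest peaks. This library also stood apart in the values below, so differences between genotypes are also given without it. Of the promoters of the cell type marker genes, all 13 of spermatogonia, all 9 of Sertoli cells, all 9 of peritubular and stromal cells and 6 or 7 of the 7 of Leydig cells had a peak in each library. The promoters of both germ cell and somatic markers thus carried peaks, and the share of somatic cells in the libraries was not measured by them.

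A start listed by RefSeq for another transcript lay inside 12 of the 3′ end regions, since a single 5′ end was used per gene. All 12 were called in every library. The stretches before 2 of these starts, from the best ranked regions that hold such a stretch, are shown as the letters under such a region. They are the part of the listed promoter window that lies inside the region and shares no 25-base word with an annotated GENCODE transcript (RefSeq promoter table, GRCm38.p6, 5′ to 3′ on the strand of the gene). Capitals mark each CG dinucleotide.

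Mien1, minus strand, chr11:98439009-98439238, from 250 to 21 bases before the listed start: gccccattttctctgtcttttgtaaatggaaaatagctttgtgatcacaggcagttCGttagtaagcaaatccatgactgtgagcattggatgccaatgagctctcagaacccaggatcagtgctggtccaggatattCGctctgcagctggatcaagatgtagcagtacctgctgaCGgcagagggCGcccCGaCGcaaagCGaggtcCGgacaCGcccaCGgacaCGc

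Rara, plus strand, chr11:98937446-98937602, from 250 to 94 bases before the listed start: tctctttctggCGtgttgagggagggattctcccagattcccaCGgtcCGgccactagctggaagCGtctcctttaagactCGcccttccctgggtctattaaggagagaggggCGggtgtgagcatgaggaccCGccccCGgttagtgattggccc

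The Mien1 stretch lies in the region at the convergent 3′ ends of Erbb2, a receptor tyrosine kinase, and Mien1, a small membrane-anchored protein. It held 11 CG dinucleotides, where the same positions of 32851 listed promoters had a median of 5. Rara encodes a retinoic acid receptor, and its stretch lies in the region chr11:98936100-98938567 at the 3′ end of the predicted gene Gm46294. It held 8 CG dinucleotides against a median of 3. The GC box GGGCGG, counted on both strands, occurred 2 times in the Rara stretch and was not found in the Mien1 stretch. It occurred at the same positions in 17.6% and 29.8% of all listed promoters, respectively. With every listed start used as a 5′ end, 2483 3′ end regions were found.

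Of the 3′ end regions, 1595 (63.1%, 95% Wilson interval 61.2 to 64.9) had a peak in all 6 libraries. Over all regions the share was 57.3%. Promoter regions, within 3 kb of a 5′ end, reached 77.2%, other gene body regions 51% and intergenic regions 53.6%. By class, 3′ end regions thus lay between promoters and the rest. Without WT replicate 2, 68.7% of 2504 such regions had a peak in all 5 remaining libraries, against 62.5% of all regions. Wilson intervals cover counting error only, and regions are not independent of each other. Wider regions were called in more libraries, and the rule favours wide regions. In windows of equal size at 8902 genes, described below, the shares called in all 6 libraries were close. They were 62.2% for regions at the 3′ end, 60.1% at 5 kb inside the gene and 63.4% at 5 kb beyond it.

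**Figure D1:**
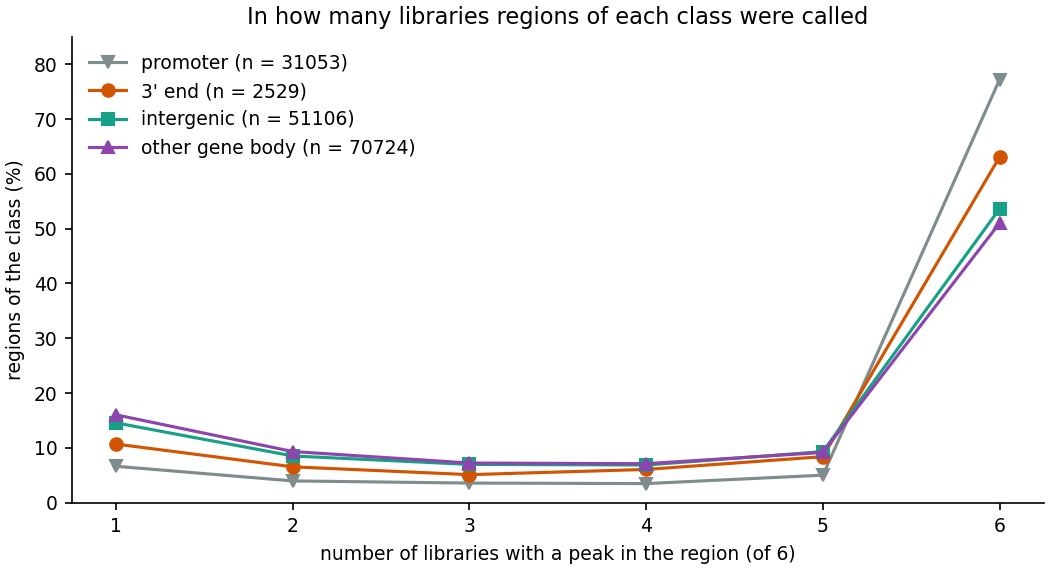
Percentage of the regions of each class (y axis) called in 1 to 6 libraries (x axis), for promoter, 3′ end, intergenic and other gene body regions. The 3′ end regions lie at 63.1% for all 6 libraries, below the promoters at 77.2% and above intergenic regions at 53.6%.

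Regions found in few libraries were narrow and weak. Among 3′ end regions, 271 were called in 1 library, 166 in 2, 130 in 3, 154 in 4 and 213 in 5. Their median width rose from 302 bp in those called in 1 library to 900 bp in those called in 5, and was 1315 bp in those called in all 6. The rank of a peak is given here as its place in its own list by −log10 q, in percent, where 100% is the weakest. The median rank was 94.3% for regions called in 1 library and 43.2% for those called in 6. Of the 213 regions that lacked a peak in a single library, 131 lacked it in WT replicate 2 and 11 to 22 in each of the others.

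The number of 3′ end regions, their share of the peak list and their width overlapped between genotypes. A peak lay in 2032, 2119 and 2145 of the regions in S7KO replicates 1, 2 and 4 and in 2048, 1777 and 2123 in the WT replicates. WT replicate 2 was the lowest and the other 5 libraries lay close together. The means were 2099 (SD 59.2) for S7KO and 1983 (SD 182) for WT, with 3 libraries each (p = 0.5 by an exact two-sided permutation test, adjusted p = 0.72 over 6 measures). The difference of 116 regions became 14.5 without WT replicate 2 and 185 without WT replicate 4. Regions at 3′ ends took 1.79%, 1.75% and 1.71% of the peaks in S7KO replicates 1, 2 and 4 and 1.80%, 1.81% and 1.69% in the WT replicates (exact permutation test, p = 0.8, adjusted p = 0.8). The share thus varied by about as much within a genotype as between them, and the smallest p this test allows is 0.1.

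Peaks in these regions had a median width of 822, 783 and 810 bp in S7KO replicates 1, 2 and 4. In WT it was 826 bp in replicate 1, 676 bp in replicate 2 and 778.5 bp in replicate 4. The mean of these medians was 805 bp (SD 19.98) for S7KO and 760 bp (SD 76.7) for WT, with 3 libraries each (p = 0.5 by the exact permutation test, adjusted p = 0.72). Median ranks were 55.2%, 53.4% and 53.0% in S7KO and 56.6%, 55.6% and 52.2% in WT (exact permutation test, p = 0.6, adjusted p = 0.72). Both measures overlapped between the genotypes. The width difference of 44.8 bp became 2.33 bp without WT replicate 2 and 78.1 bp without WT replicate 1, where the exact permutation p was 0.1, the smallest possible. The rank difference of -0.906 points became -0.263 without WT replicate 2 and -2.10 without WT replicate 4.

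**Figure D2:**
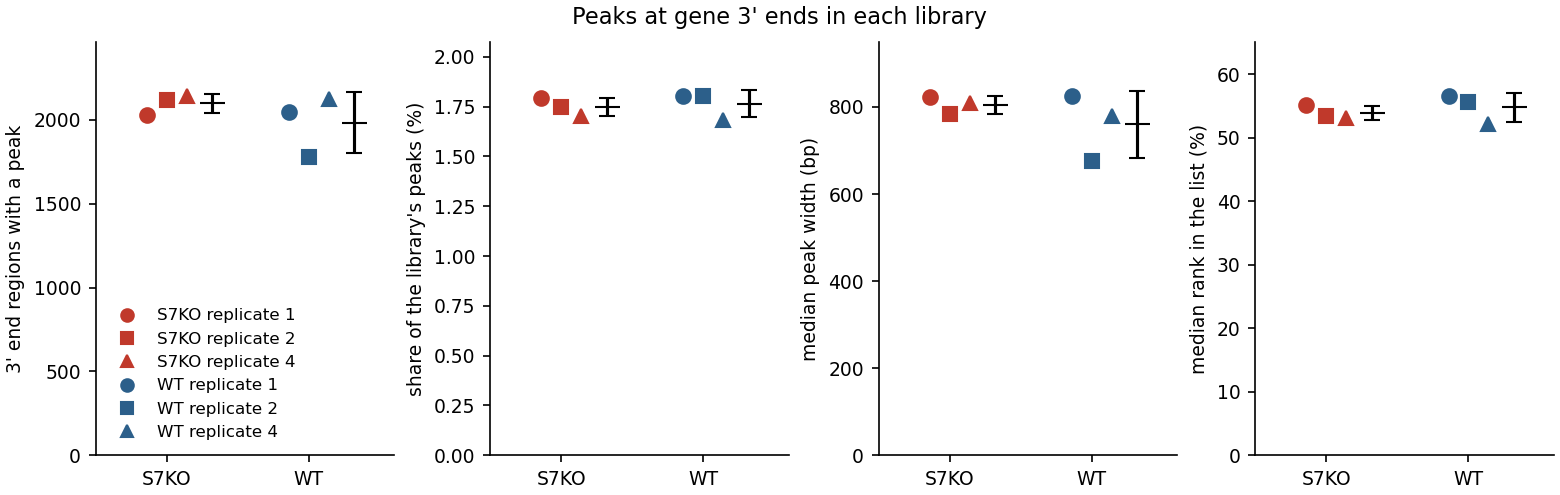
Number of 3′ end regions with a peak, their share of each library's peaks, the median width of their peaks and the median rank of their peaks in the list (100% is the weakest), for 3 S7KO and 3 WT libraries. Points are libraries and bars the mean ± SD of the genotype; WT replicate 2 has the fewest regions (1777) and the narrowest peaks (676 bp).

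Few 3′ end regions had a peak in every library of a genotype but no peak in the other genotype. There were 8 for S7KO, which is 0.316% of the 3′ end regions (Wilson interval 0.160 to 0.623) against 0.418% of all regions. For WT there was 1, or 0.0395% (0.00698 to 0.224) against 0.0746% of all regions. Both intervals include the share of all regions. WT-specific calls needed a peak in WT replicate 2, the library with the fewest peaks. Without that library, 12 regions (0.479%) were specific to S7KO and 8 (0.319%) to WT, against 0.591% and 0.503% of all regions. These counts depended on which library was left out. The S7KO count was 23 (0.937%, against 1.28% of all regions) without S7KO replicate 1 and 14 (0.570% against 0.944%) without S7KO replicate 2. It was 39 (1.59% against 1.09%) without WT replicate 1 and 33 (1.35% against 1.88%) without WT replicate 4. The WT count was 3 (0.122% against 0.219%) without S7KO replicate 2 and 5 (0.205% against 0.281%) without S7KO replicate 4. It was 11 (0.447% against 0.316%) without WT replicate 1 and 6 (0.246% against 0.168%) without WT replicate 4. The share among 3′ end regions thus lay below or above that of all regions depending on the library. With 1 library fewer, the rule asks for 1 peak or 1 absence fewer.

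The 5 S7KO-specific regions with the best ranks lay at Commd1, Nedd4, Mark1, Mical2 and Camsap1, and all were weak. The region at Commd1, a gene of copper balance and NF-kB control (chr11:22898380-22899436), had ranks of 89.3%, 86.6% and 81.4% for replicates 1, 2 and 4. That at Nedd4, a ubiquitin ligase (chr9:72750050-72750673), ranked at 80.6%, 91.8% and 81.4%. The region over the 3′ end of Mark1, a microtubule-regulating kinase, spanned 1733 bp (chr1:184895972-184897704), all of it covered in S7KO replicate 4 and only 281 and 321 bp in replicates 1 and 2. Mical2, an actin-oxidising enzyme (chr7:112354310-112354871), and Camsap1, which binds microtubule minus ends (chr2:25925911-25926465), had ranks between 75.5% and 98.2%. An alternative limited to peaks with −log10 q of at least 3 was chosen for named regions after seeing the data. With it, none of the 5 was a 3′ end region with a peak in more than 2 libraries. With 250 bp either side of the 3′ end, those at Commd1, Mical2 and Camsap1 were outside the set.

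The WT-specific region lay inside Pabpn1 (chr14:54897390-54898530), the nuclear poly(A)-binding protein that governs poly(A) tail length. Its ranks were 75.8%, 65.0% and 46.3% for WT replicates 1, 2 and 4, and its fold enrichment was only 1.68, 1.92 and 1.86. Its peaks were 940, 295 and 422 bp wide, and no S7KO library had one. The region lay 3247 bp from the nearest 5′ end and 397 bp from the 3′ end, so it was outside the set at 250 bp. With −log10 q of at least 3 it still had its 3 peaks.

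To place the peaks relative to the 3′ end, 8902 genes were used whose 3′ end, a point 5 kb inside the gene and a point 5 kb beyond it all had windows of 500 bp either side lying more than 3 kb from any 5′ end. The window at the 3′ end held a peak in 13.9%, 14.4% and 15.3% of genes in S7KO replicates 1, 2 and 4, and in 13.7%, 10.9% and 14.8% in WT. Inside the gene the share was 10.9%, 12.0% and 12.1% in S7KO and 10.7%, 9.05% and 12.3% in WT. The 3′ end exceeded the interior in 6 of 6 libraries, by 2.66 ± 0.515 percentage points (SD, exact sign-flip permutation test, p = 0.031, adjusted p = 0.0417 over 4 tests). With 6 libraries this is the smallest p the test allows. The excess was 1.30 points against a window 3 kb inside, 1.37 and 4.61 points with 250 and 1000 bp either side, and 1.57 points with −log10 q of at least 3, with the same exact sign-flip p in each. The excess was 2.86 points (SD 0.446) for S7KO and 2.45 points (SD 0.579) for WT, with 3 libraries each (p = 0.4 by the exact permutation test, adjusted p = 0.72). This difference of 0.416 points became 0.124 without WT replicate 2, 0.247 without S7KO replicate 4, 0.668 without S7KO replicate 2 and 0.702 without WT replicate 1.

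Beyond the gene the shares were close to those at the 3′ end. They were 13.2%, 13.9% and 14.4% in S7KO and 13.3%, 11.1% and 14.2% in WT. The 3′ end was higher in 5 of 6 libraries and lower in WT replicate 2, with a mean difference of 0.477 ± 0.367 points (SD, exact sign-flip permutation test, p = 0.0625, adjusted p = 0.0625). Its direction depended on the window. With 250 bp either side the 3′ end was lower by a mean difference of -0.70 points, and with 1000 bp it was higher by 1.76 points (exact sign-flip permutation p = 0.031 in each). The sign of this comparison therefore cannot be given without its window.

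The base of the annotated 3′ end itself was covered by a peak less often than the bases 1 kb inside the gene and 1 kb beyond it. It lay inside a peak in 4.85%, 5.04% and 5.40% of genes in S7KO replicates 1, 2 and 4 and in 5.01%, 3.62% and 5.36% in WT. At 1 kb inside the gene the values were 7.29%, 7.35% and 7.89% in S7KO and 7.48%, 5.55% and 7.72% in WT. At 1 kb beyond it they were 7.14%, 7.37% and 7.76% in S7KO and 7.29%, 5.12% and 7.10% in WT. Coverage at the 3′ end was thus 0.652 to 0.694 of that at 1 kb inside in the 6 libraries, with S7KO and WT interleaved. In every library the lowest point within 500 bp fell within 100 bp of the 3′ end. This dip was chosen for description after the profile was seen and has no test. At 5 kb inside the gene, coverage was below that at the 3′ end in each library. It was 4.45%, 4.73% and 4.92% in S7KO and 4.43%, 3.50% and 4.95% in WT. At 3 kb inside, coverage was above that at the 3′ end in each library. The values there were 6.07%, 6.49% and 6.50% in S7KO and 6.18%, 4.80% and 6.61% in WT. Coverage at 5 kb beyond the gene was also above it in each library, at 4.82% to 6.92%. The windows at the 3′ end and at the points 5 kb to either side lay more than 3 kb from any 5′ end used. The bases between these windows therefore did so too. A single 5′ end was used per gene, and other listed starts can lie nearer.

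**Figure D3:**
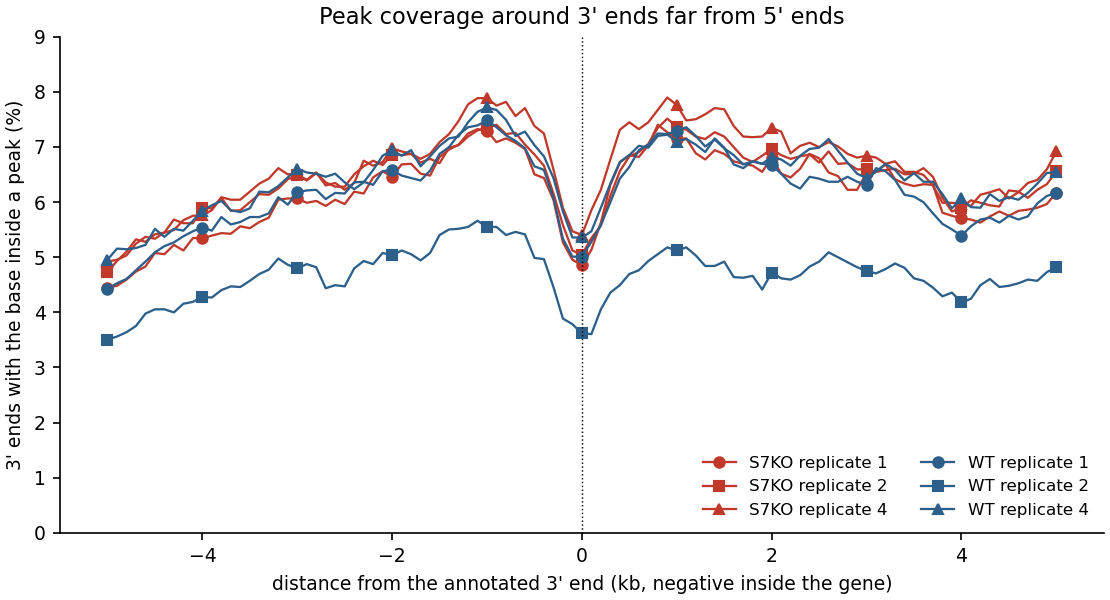
Percentage of 8902 3′ ends for which the base at a given distance from the annotated 3′ end lay inside a peak (y axis), against that distance in kb, negative inside the gene (x axis); 1 line per library, S7KO red and WT blue. All 6 lines dip at 0, where coverage is 3.62% to 5.40%, and rise to 5.55% to 7.89% at 1 kb inside the gene.

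Relative to the 2775 pairs of a region and a 3′ end it reached, a region covered the 3′ end in 1062 (38.3%), lay wholly inside the gene in 779 (28.1%) and lay wholly beyond it in 934 (33.7%). The centre of the region was at a median of 36 bp beyond the 3′ end, with quartiles at -524 and 600 bp. Regions called in all 6 libraries covered the 3′ end in 44.4% of pairs. Most regions reached 1 protein-coding 3′ end, 244 reached 2 and 1 reached 3. Of the 14623 3′ ends that lay more than 3 kb from any 5′ end, 2739 (18.7%) had a 3′ end region, and 1737 (11.9%) had a region called in all 6 libraries. The share of them with a peak was 15.7% ± 0.405 for S7KO and 14.8% ± 1.37 for WT (SD, n = 3 each), and the lowest of the 6 libraries was WT replicate 2, at 13.2%. The genotypes overlapped (difference of 0.878 percentage points, p = 0.5 by the exact permutation test, adjusted p = 0.72). The difference was 0.105 points without WT replicate 2 and 1.37 points without WT replicate 4.

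Because the rule asks only that a region come near the 3′ end, wide regions had more chance to enter it. Widths were therefore compared between windows of equal size. Regions called in all 6 libraries had a median width of 1353 bp where they reached the window at the 3′ end, 1234 bp at the window inside the gene and 1213 bp at the window beyond it. Regions of 2 kb or more made up 23.4% (240 of 1024), 14.2% (120 of 845) and 17.5% (180 of 1030). Per library, peaks of 2 kb or more were 8.82%, 7.66% and 9.89% of those at the 3′ end in S7KO replicates 1, 2 and 4, and 9.90%, 4.18% and 7.63% in WT. Inside the gene the values were 5.24%, 5.69% and 6.04% in S7KO and 5.32%, 3.65% and 4.88% in WT. Wide peaks were more frequent at the 3′ end than inside in 6 of 6 libraries, and more frequent than beyond it in every library but WT replicate 2 (4.18% against 4.44%). The limit of 2 kb was chosen after seeing the widths, so the comparison has no test.

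Wide regions at 3′ ends ranked low. Those of 2 kb or more had a median rank of 53.3% at the 3′ end, against 43.5% inside the gene and 47.5% beyond it. Over whole classes, regions of 3 kb or more called in all libraries ranked at 61.4% at 3′ ends (n = 96), 44.4% in other gene bodies (n = 303), 47.4% between genes (n = 206) and 29.8% at promoters (n = 963). The peaks at the 3′ end window had a higher median rank number, thus weaker, than those inside the gene in 6 of 6 libraries. The difference ran from 1.68 points in WT replicate 4 to 5.54 points in S7KO replicate 1. Over whole classes, all peaks had median ranks of 52.2% to 56.6% at 3′ ends and 55.3% to 56.5% in other gene bodies. There the rank number was lower at 3′ ends in every library but WT replicate 1 (56.6% against 56.5%).

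**Figure D4:**
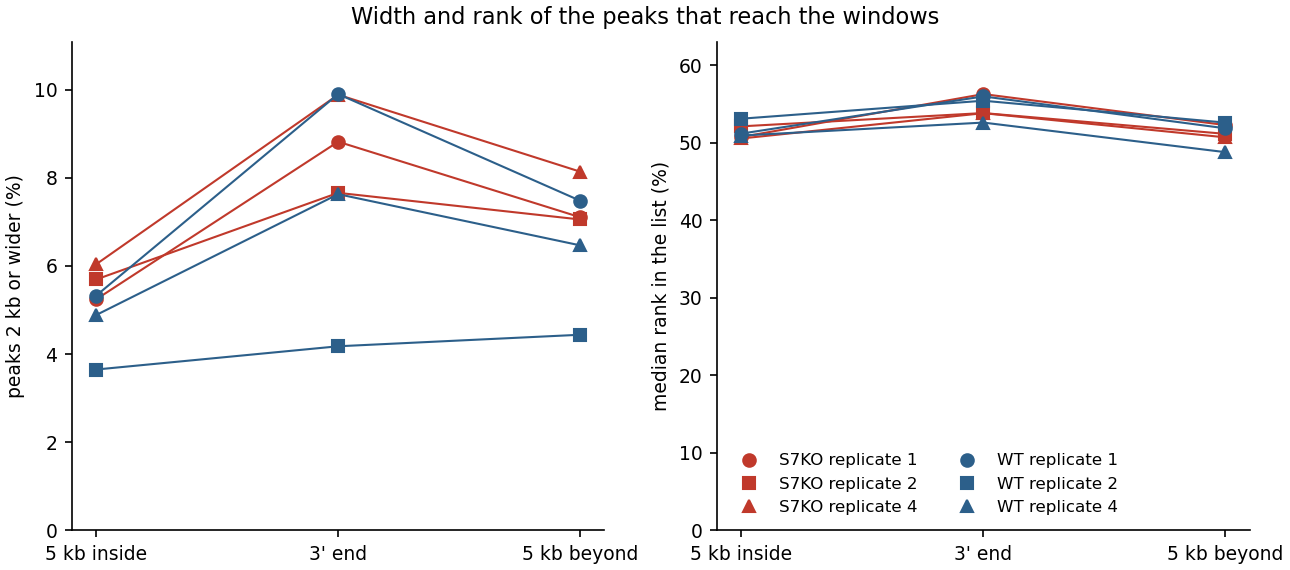
Left, percentage of the peaks reaching a window that were 2 kb or wider; right, their median rank in the library's list (100% is the weakest); windows 5 kb inside the gene, at the 3′ end and 5 kb beyond it, 1 line per library. Wide peaks are most frequent at the 3′ end in 5 libraries, reaching 9.90% in WT replicate 1, and WT replicate 2 stays at 3.65% to 4.44%.

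The widest region called in all 6 libraries spanned 5702 bp (chr2:75669322-75675023) between the convergent genes Hnrnpa3, an RNA-binding protein, and Nfe2l2, the oxidative stress factor NRF2. No library covered it with a single peak. The widest peak measured 1848, 1787 and 1763 bp in S7KO replicates 1, 2 and 4 and 2675, 1273 and 2965 bp in WT. The best-placed peak ranked between 44.7% and 72.2%.

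Much the same held for the next in width. The region over the 3′ end of Btbd9, a BTB domain gene (4784 bp, chr17:30212292-30217075), ranked between 84.1% and 95.8% in the 6 libraries. That of Calr4, a calreticulin-like gene (4621 bp, chr4:109251727-109256347), ranked between 67.4% and 91.4%. A region of 4498 bp (chr4:40734219-40738716) joined the convergent ends of Dnaja1, a co-chaperone, and Smu1, a splicing factor, at ranks of 62.5% to 79.1%. Iqce, a ciliary gene (4414 bp, chr5:140661558-140665971), ranked between 52.4% and 70.1%. With peaks of −log10 q of at least 3, no region at Btbd9 met the 3′ end rule any more, and the one at Calr4 had peaks in 3 libraries.

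The strongest 3′ end regions were of ordinary width. They were picked by their weakest rank over all lists, so small and close ranks in every library follow from the choice. The best worst rank belonged to a region of 880 bp (chr2:30794378-30795257), 306 bp beyond the 3′ end of 1700001O22Rik. Its ranks were 1.13%, 1.08% and 1.34% for S7KO and 1.07%, 1.37% and 1.21% for WT, in replicate order, with fold enrichments of 7.33 to 7.62. Next came Bcat2, the mitochondrial branched-chain aminotransferase (chr7:45588374-45589592), with ranks of 0.439% to 1.43%. The region at Polr3gl, a subunit of RNA polymerase III (chr3:96576351-96577567), had ranks of 0.757% to 1.59%. None of these 3 regions covered the 3′ end, and with 250 bp either side those at 1700001O22Rik and Polr3gl were outside the set.

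Listed starts of another gene lay inside the following pair. The region at the predicted gene Gm46933 (chr5:92082867-92084190) holds starts of G3bp2, a stress granule protein, and ranked between 1.25% and 1.68%. The region at the zinc finger gene Zfp329 (chr7:12802752-12804150) holds a start of Zscan18 and ranked between 1.18% and 1.75%. With every listed start used as a 5′ end, both left the set, as did the region of Erbb2 and Mien1. Among the 54 3′ end regions in the best 10% of every list, 3 held a listed start.

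The agouti gene a, whose product switches pigment cells to yellow pigment, carried the next region (chr2:155050225-155051508), over its 3′ end. Its ranks were 2.55%, 1.33% and 1.32% in S7KO replicates 1, 2 and 4 and 0.634%, 2.22% and 1.62% in WT, overlapping between genotypes. The region at Fam120a, an RNA-binding scaffold (chr13:48878184-48879152), ranked between 2.35% and 3.34%.

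Regions that reached facing 3′ ends were led by that of Dcst2, a sperm membrane protein, and Zbtb7b, a T cell lineage factor (chr3:89378109-89379216). Its ranks were 2.08%, 1.51% and 2.17% in S7KO and 2.68%, 1.92% and 2.53% in WT. The 3′ ends of these genes are 1 bp apart and both lie 465 bp or more from the region, which sits inside Zbtb7b. It was outside the set at 250 bp, as was the next. The region of Erbb2 and Mien1 (chr11:98438181-98439398) ranked between 1.97% and 4.35%. The third, at Duox1, an oxidase that makes hydrogen peroxide, and Shf, an adaptor protein (chr2:122348009-122349773), ranked between 5.76% and 8.52% and covered the 3′ end of Shf.

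Convergent genes carried more 3′ end regions than the rest. A convergent gene is one with the 3′ end of a gene of the other strand within 5 kb. A peak was found at 20.4%, 20.8% and 21.4% of 4218 such 3′ ends for S7KO and at 20.6%, 16.9% and 20.6% for WT. At the 10405 other 3′ ends it was 13.1%, 13.7% and 13.8% in S7KO and 13.2%, 11.7% and 13.8% in WT. The difference was 6.88 ± 0.868 percentage points and was above 0 in 6 of 6 libraries (SD, exact sign-flip permutation test, p = 0.031, adjusted p = 0.0417). It was smallest in WT replicate 2, at 5.18 points. With −log10 q of at least 3 it was 3.77 points, and with equal numbers of best peaks 4.46 points, at the same exact p. Neighbouring convergent ends can share a region and are not independent.

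The share fell with the distance of the facing 3′ end. A region called in all 6 libraries was found at 15.5% of 3′ ends with a facing end within 2 kb, 14.1% at 2 to 5 kb, 13.9% at 5 to 10 kb and 10.04% farther away. Regions that reached 3′ ends on both strands numbered 150 of the 1595, and 66 of them (44.0%) were 2 kb or wider, against 297 (20.6%) of the others. Reaching a pair of ends itself favours wide regions.

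Genes with a peak at their own promoter, within 3 kb of the 5′ end, also had a 3′ end peak more often. The share was 16.9%, 17.5% and 17.8% in S7KO replicates 1, 2 and 4 and 17.0%, 14.7% and 17.5% in WT. Without a promoter peak it was 7.67%, 7.41% and 7.45% in S7KO and 7.66%, 6.95% and 7.30% in WT. The difference was 9.50 ± 0.986 percentage points, above 0 in 6 of 6 libraries (SD, exact sign-flip permutation test, p = 0.031, adjusted p = 0.0417). It was 6.13 points with 250 bp either side and 5.87 points with −log10 q of at least 3, at the same exact p. Both properties went together with the share. Called in all 6 libraries, a region lay at 15.3% of convergent 3′ ends of genes with a promoter peak in every library and at 12.1% of their other 3′ ends. For genes with no promoter peak in any library the values were 9.57% and 4.65%.

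**Figure D5:**
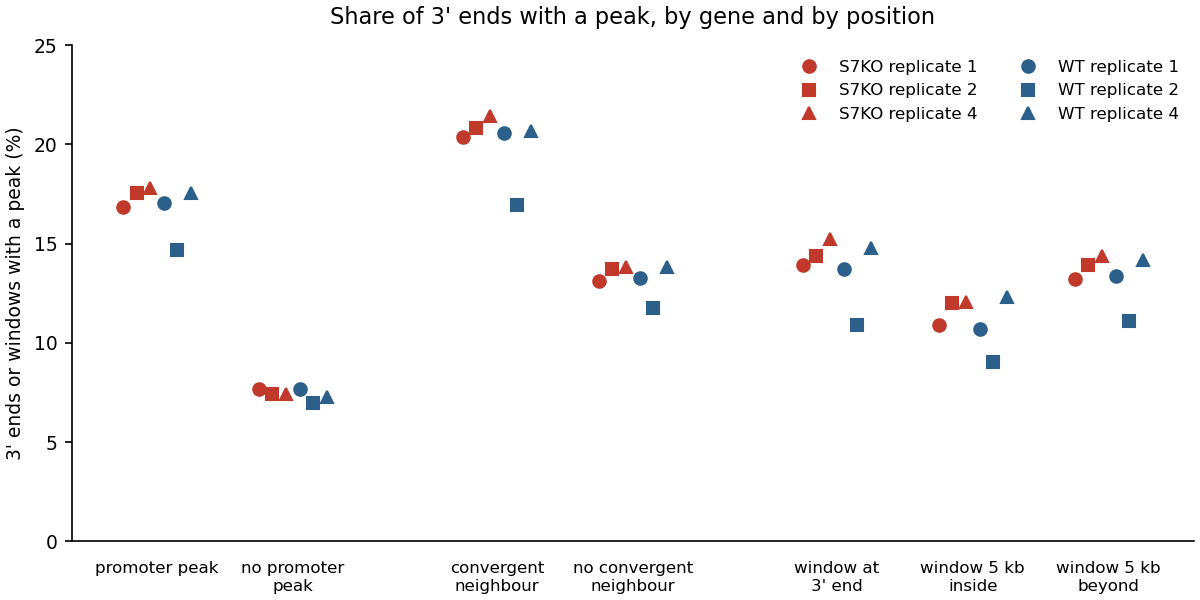
Percentage of 3′ ends with a peak in each library (y axis), for genes with and without a promoter peak and with and without a convergent neighbour within 5 kb, and percentage of windows with a peak at the 3′ end, 5 kb inside the gene and 5 kb beyond it. S7KO libraries are red and WT libraries blue; 3′ ends of genes without a promoter peak lie at 6.95% to 7.67%, below the 14.7% to 17.8% of genes with one.

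The share also varied with gene length. A region called in all 6 libraries lay at 11.1% of the 3′ ends of genes under 10 kb (Wilson interval 10.1 to 12.2), 14.1% at 10 to 30 kb (13.2 to 15.1), 10.8% at 30 to 100 kb (9.89 to 11.8) and 9.96% over 100 kb (8.75 to 11.3). Where a lncRNA gene overlapped the 3′ end the share was 11% (56 of 509), and elsewhere it was 11.9%.

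Gene families, taken by the start of the symbol, differed in how often a 3′ end region was called in all 6 libraries. Of 128 eligible 3′ ends of vomeronasal receptor genes (Vmn), 0 had one, with an upper Wilson bound of 2.91%. Olfactory receptor genes (Olfr) had 4 of 109 (3.67%, interval 1.44 to 9.06). Keratin genes (Krt), which build the intermediate filaments of epithelia, had 11 of 45 (24.4%, interval 14.2 to 38.7), many of them in the cluster on chromosome 15. Classical cadherins and relatives (Cdh) had 7 of 26 and T-box genes (Tbx) 3 of 10. Zinc finger genes (Zfp, Zscan, Zkscan and Zbtb) had 45 of 394 (11.4%) and solute carriers (Slc) 44 of 321 (13.7%), near the 11.9% of all eligible 3′ ends. No test was run on families, and neighbouring genes of a cluster are not independent. Multiply mapped reads had been removed before peaks were called, and the part of this in families of similar genes was not tested.

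Symbols beginning with Rpl or Rps had 9 of 30 (30.0%, interval 16.7 to 47.9). Of these, 8 encode cytoplasmic ribosomal proteins (Rpl6, Rpl19, Rpl36, Rps7, Rps10, Rps15a, Rps19 and Rps24), and Rps6kb1 is a kinase. The 30 symbols also include Rps6ka1, Rps6ka2, Rps6ka5, Rps6kc1, Rps6kl1 and Rps19bp1, which are not ribosomal protein genes and had no region. The 30.0% is thus not the share of ribosomal protein genes. The region at Rps24 measured 3808 bp, that at Rps7 3224 bp and that at Rps15a 3031 bp. These genes were named after their values were seen. Mitochondrial ribosomal protein genes (Mrpl and Mrps) had 4 of 50 (8%, interval 3.15 to 18.8).

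Spermatogonia genes carried 3′ end regions about as often as all genes. Of 33 listed genes, 24 had an eligible 3′ end, 4 had a region and 3 had one in all 6 libraries. That is 12.5% against 11.9% of all eligible 3′ ends. At Tex14, needed for the bridges between germ cells, a region of 1610 bp covered the 3′ end (chr11:87554227-87555836) and ranked at 14.4%, 10.37% and 27.6% in the S7KO libraries, and at 26.9%, 15.0% and 13.9% in the WT ones. At Sohlh1, a transcription factor of differentiating spermatogonia (chr2:25842024-25842663), the ranks ran from 35.7% to 58.7%. Dazl, a germ cell RNA-binding protein, had a wide and weak region just beyond its 3′ end (3528 bp, chr17:50275571-50279098) with ranks of 75.3% to 89.2%. The region at Mcam was called in 4 libraries. In all of these genes the ranks of the genotypes overlapped.

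Somatic lists were short. Sertoli genes had 3 of 13 eligible 3′ ends with a region in all 6 libraries (23.1%, against 11.9% of all eligible 3′ ends). These were Clu, a secreted chaperone, with ranks of 18.1% to 36%, the transcription factor gene Sox9 with 47.8% to 78.3%, and Wt1, also a transcription factor gene, with 55.5% to 97.1%. Leydig genes had 0 of 4, and Cyp11a1, which starts steroid synthesis, had a region in 5 libraries and none in WT replicate 2. Peritubular and stromal genes had 0 of 13, against the same 11.9%.

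Sirtuin genes had no region called in all 6 libraries among 5 eligible 3′ ends, where 11.9% of all eligible 3′ ends had one. The region beyond Sirt1, a nuclear deacetylase of the same family (544 bp, chr10:63318435-63318978), was called in 4 libraries, at ranks of 92.4%, 85.9% and 83.7% in the S7KO replicates and 94.3% in WT replicate 1. The 3′ end of Sirt7 was not eligible, since the 5′ end of Pcyt2 lies 424 bp away, so the targeted gene gave no check of the labels here. Genes of H3K36 modifiers had 2 of 12 (16.7%, against 11.9% of all). Kdm2a, a demethylase of H3K36, ranked between 7.32% and 15.3% (chr19:4314942-4315723). Smyd2, a methyltransferase, had ranks of 52.4% to 94.2% (chr1:189880054-189880719).

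Genes of 3′ end processing and termination had a region in any library at 7 of 23 eligible 3′ ends (30.4%, against 18.7% of all) but in all 6 libraries only at Pabpc1 (4.35% against 11.9%). Pabpc1 encodes the cytoplasmic poly(A)-binding protein, and its region was wide and weak (3469 bp, chr15:36591811-36595279, ranks of 80.1% to 99.5%). Scaf4, which prevents early termination, had a region in 5 libraries, the cleavage factor gene Cpsf4 in 3, and Pcf11, Cpsf1 and Zc3h4 in 1 each, beside Pabpn1 described above. Double-strand break repair genes had 3 of 22 in any library (13.6%, against 18.7% of all) and none in all 6 (against 11.9%). Trp53bp1, Rad52 and Rnf8 each had a region in 1 library. With so few genes, the interval of each share is wide and no list was tested.

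The limits of the rule fell within gradual change. Regions 401 to 500 bp from a 3′ end numbered 287, with 56.4% called in all 6 libraries and a median width of 766 bp. Just outside, at 501 to 600 bp, there were 309, with 55.3% and 784 bp. Regions that met the 3′ end limit and lay 3001 to 3500 bp from a 5′ end numbered 88, with 72.7% called in all libraries, and those at 2501 to 3000 bp numbered 99, with 66.7%.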

How the data were processed

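Per the labels and the study's methods, the authors trimmed reads with Trim Galore 0.6.6 and aligned them to mm10 with Bowtie2 2.4.4.1. They removed duplicate, multiply mapped and mitochondrial reads, shifted ends for the Tn5 cut and filtered fragments by size. Broad peaks were then called with MACS2 2.2.5, 1 list per library. The study's methods set a lower and an upper fragment size, while its results name nucleosome-free fragments. The peaks thus do not stand for all fragments. Each deposited list gave a score, a fold enrichment (the ratio of pileup to local background), and p-values and q-values as −log10, all written by the authors' peak caller. Ranks are by −log10 q within a list. Reads were not used, so accessibility was not compared between libraries and the authors' DiffBind test was not repeated.

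Overlapping or touching peaks were merged, and a library had a region when any of its peaks lay in it. Genes came from a RefSeq table of GRCm38.p6, whose coordinates equal mm10. Strand was known for 97.9% of 20665 protein-coding genes, from the RefSeq promoter table (16457 of those on chromosomes 1 to 19) or from the GENCODE gene of the same symbol (3775). Both ends of the 4426 genes of any type without a strand counted as possible 5′ ends. Exons and introns were not separated, and no region sequence was read, since the genome at hand was of another build.

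Libraries were grouped by the genotype in their labels. Genotypes were compared on values per library with an exact permutation test (two-sided, 20 assignments), and differences within libraries with an exact two-sided sign-flip permutation test on 6 libraries, each family with Benjamini-Hochberg adjustment. These p-values measure only the spread between these libraries. Named regions were the 8 best and 5 widest called in all 6 libraries, the 5 best specific to each genotype, the 3 best at convergent ends, and those at genes of the spermatogonia, sirtuin, H3K36 modifier and 3′ end processing lists called in all 6. Other genes of the lists were named after their values were seen. Regions, lists and tests were chosen with earlier results of these data known. The calculations used Python 3.11.15, numpy 2.4.6, pandas 2.3.3 and scipy 1.17.1 and were tested on simulated peak lists.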

Additional observations from a re-analysis of the deposited data

Results flagged for a closer look

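The excess of 3′ end peaks at convergent over other 3′ ends was 5.18 percentage points in WT replicate 2, apart from the 6.81 to 7.58 points of the other 5 libraries. The gap to the nearest library was 0.679 of the whole range, above Dixon's 95% critical value for 6 libraries. Chance flags about 1 in 20 groups, and 4 values were examined. The library had the lowest background coverage (2.92, against 4.72 to 6.03) and the fewest listed peaks, and the part of depth in this value was not tested.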

How the results depend on the processing

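Of 231 comparisons of a result with an alternative, 10 changed direction, 8 of them differences between genotypes. S7KO minus WT in 3′ end regions and in 3′ ends with a peak turned to -24.3 regions and -0.169 points with equal numbers of best peaks. The difference in the share of peaks, -0.0162 points, turned to 0.00731 with replicates 1 and 4 only and lay between -0.0560 and 0.00525 with 1 library left out. It was 0.00199, 0.00349 and 0.00525 without S7KO replicate 4, WT replicate 1 and WT replicate 2. The difference in median rank turned to 0.10 with replicates 1 and 4 only and to 0.0371 without WT replicate 1 (range from -2.10). The exact permutation tests of these differences cannot go below p = 0.1, so they do not bear on stability. The difference between the 3′ end and the window beyond it turned to -0.703 points at 250 bp and -0.0318 with −log10 q of at least 3. It passed the sign-flip test at 1.76 points (1000 bp), 0.924 (5′ ends farther than 1 kb), 0.682 (genes of unknown strand not used) and 1.18 (window at 10 kb).

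At 250 bp, 8 of the 21 regions named by rank, width, genotype or convergence were outside the set. With 1 library left out, the smallest sign-flip p is 0.0625, so the other within-library differences could not pass. They stayed between 2.55 and 2.82 points for the gene interior, 9.19 and 9.77 for promoter peaks and 6.53 and 7.21 for convergent ends. With replicates 1 and 4 only they were 2.93, 9.60 and 7.27.

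S7KO-specific regions numbered 5 at 250 bp, 15 at 1000 bp, 3 with −log10 q of at least 3, 3 with equal peak numbers, 21 with replicates 1 and 4 only, 15 where peaks had to cover 50% of the region, and 12 to 39 with 1 library left out. WT-specific regions numbered 0 at 250 bp and with 50% cover, 4 with equal peak numbers, 20 with replicates 1 and 4 only and 1 to 11 with 1 library left out. The share called in all libraries was 67.7% at 250 bp, 59.5% at 1000 bp, 60.6% with −log10 q of at least 3, 71.3% with replicates 1 and 4, 42.2% with 50% cover and 64.6% to 68.7% with 1 library left out. Median region width was 1145 bp at 250 bp, 910 bp at 1000 bp and 1078 bp with −log10 q of at least 3.

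The replicate numbers were not treated as pairs. The deviations of same-numbered libraries from their genotype means correlated at 0.106, -0.003 and 0.141 over all regions for replicates 1, 2 and 4. With the number as a replicate block, the difference in 3′ end regions was 116 (exact sign-flip permutation test over 3 pairs, p = 0.5, where 0.25 is the smallest possible), and no call changed. Using every listed start was added after seeing the data and changed no direction. Sequencing depth was not stated, its part in missing calls was not tested, and a missing peak does not show closed chromatin.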
